A study of Homo sapiens with 4 samples.

Results

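The genes described here are 49 genes of the G2 phase and of mitosis: the mitotic cyclins and their kinase CDK1, the mitotic kinases, the kinesin motors, the kinetochore and the proteins that build and cut the spindle. They were chosen by symbol, and all 49 of 49 were read, through 100 probe sets that carry exactly 1 gene symbol, out of 19775 genes read on the array. The cells were HepG2, an established human hepatoma line. They were deprived of serum (24 h per the design text, overnight per the labels' protocols) and then given 200 ng/ml of APRIL (TNFSF13), a cytokine related to tumour necrosis factor. The 4 samples were untreated cells (0 h) and cells treated for 2, 6 or 12 h, each hybridised to 1 Affymetrix U133 Plus 2.0 array. All were of the same line and all were starved. No time-matched untreated array was analysed here, so time in culture and treatment cannot be told apart. Each time has 1 array, so nothing here has a replicate check or a test, and every difference given is one between arrays.

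Cells that prepare to divide make these transcripts late in the cell cycle, in G2 and mitosis, and keep them low in G0 and G1. Many of their promoters carry a short element, the cell cycle genes homology region, that is bound by the MuvB core of protein complexes: with the pocket proteins and E2F4 (the DREAM complex) it holds the genes down in resting cells, and with B-MYB and FOXM1 it activates them in G2. Their proteins then drive entry into mitosis (cyclins and CDK1), attach chromosomes to the spindle (kinetochore), delay separation until all are attached (spindle checkpoint) and divide the cell (cytokinesis). In total RNA of a culture, a smaller share of cells in G2 or mitosis and less of a transcript per cell cannot be told apart.

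The members were highest on the 6 h array and lowest on the 12 h array. Each deposited value is on a log2 scale on which the middle of a probe set's 4 readings is 0, so it shows the order of the arrays but no expression level. Over the 49 members the median was 0.05 on the untreated array, then -0.06 (2 h), 0.25 (6 h) and -0.18 (12 h). The 6 h array was the highest of the 4 for 40 of the 49 members, against 31.8% of all genes. The 12 h array was the lowest for 34 members, against 28.9% of all genes. Both held for 27 members, against 11.8% of all genes. These values are relative to the bulk of genes on each array, and the 12 h order depends on that choice, as given for the spike-in controls further on.

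As log2 ratios between arrays (per gene the median over its probe sets), the members' median was -0.10 for 2 h minus 0 h, 0.29 for 6 h minus 0 h, -0.30 for 12 h minus 0 h and -0.59 for 12 h minus 6 h. The medians of all genes were 0.02, 0.05, 0.01 and -0.02. At 2 h, 37 members lay below 0, as did 9076 of the 19775 genes. No member reached 1.5-fold (0.585 in log2 units), a fold that 0.308% of all genes passed upward and 0.344% downward. At 6 h, 43 members lay above 0, as did 11782 of the 19775 genes. Of the members 8 passed 1.5-fold higher, where 1.15% of all genes did, and 1 passed it lower, where 1.64% did. At 12 h, 38 members lay below 0, as did 9435 of the 19775 genes. Of the members 14 passed 1.5-fold lower than 0 h, where 3.7% of all genes did. None passed it higher, where 4.46% of all genes did. Against 6 h, 47 of 49 members were lower at 12 h, as were 10728 of the 19775 genes. Of the members 25 passed 1.5-fold lower, where 3.4% of all genes did, while none passed it higher, where 3.51% did. At 2-fold the count lower was 3 members for 12 h minus 0 h, against 0.986% of all genes, and 10 members for 12 h minus 6 h, against 0.885%. The comparisons with 0 h share the 0 h array and the last one shares the 6 h and 12 h arrays with them, so they are not separate readings of the same thing. The background counts include genes that the cells may not express, since centred values hold no level.

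**Figure D1:**
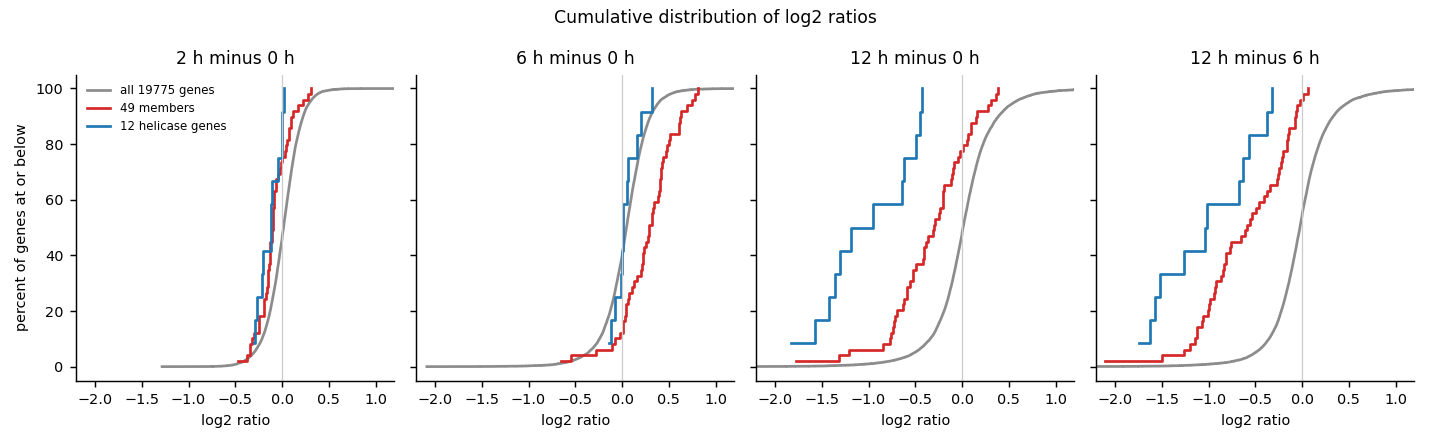
Cumulative percentage of genes (vertical axis) at or below each log2 ratio (horizontal axis), as deposited, for all 19775 genes (grey), the 49 members (red) and 12 genes of the replicative helicase (blue), with 1 panel per comparison; ratios beyond the axis are not drawn. The members lie to the right of all genes at 6 h (median 0.29) and to the left in both 12 h panels (medians -0.30 and -0.59), while the helicase is near 0 at 6 h; scaled on the spike-in controls instead, the member median for 12 h minus 0 h is 0.049 and that of all genes 0.36.

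Hybridisation control RNAs (the spike-in bio and cre sequences), read by 18 probe sets, were lower on the 12 h array than at 0 h. The median was -0.35, with all of them between -0.47 and -0.21. They are controls of the hybridisation step, and scaling on them does not measure RNA per cell. Scaled on them, every 12 h ratio against 0 h is raised by 0.35, the median of all genes moves to 0.36 and that of the members from -0.30 to 0.049. The directions given for 12 h are therefore relative to the median gene. Relative to it the members were 0.31 lower at 12 h than at 0 h and 0.57 lower than at 6 h, under either scaling. For 12 h minus 6 h the member median stayed below 0 on the spike-in scale, at -0.16, against 0.41 for all genes. Of the liver markers, 8 of 8 were read and none passed 1.5-fold in any comparison. Of 18 markers of fibroblasts, immune cells and endothelium, 16 were read and 1 passed it, the growth factor receptor PDGFRB at 12 h (1.39 for 12 h minus 6 h). Whether any of these markers is absent cannot be read from centred values.

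**Figure D2:**
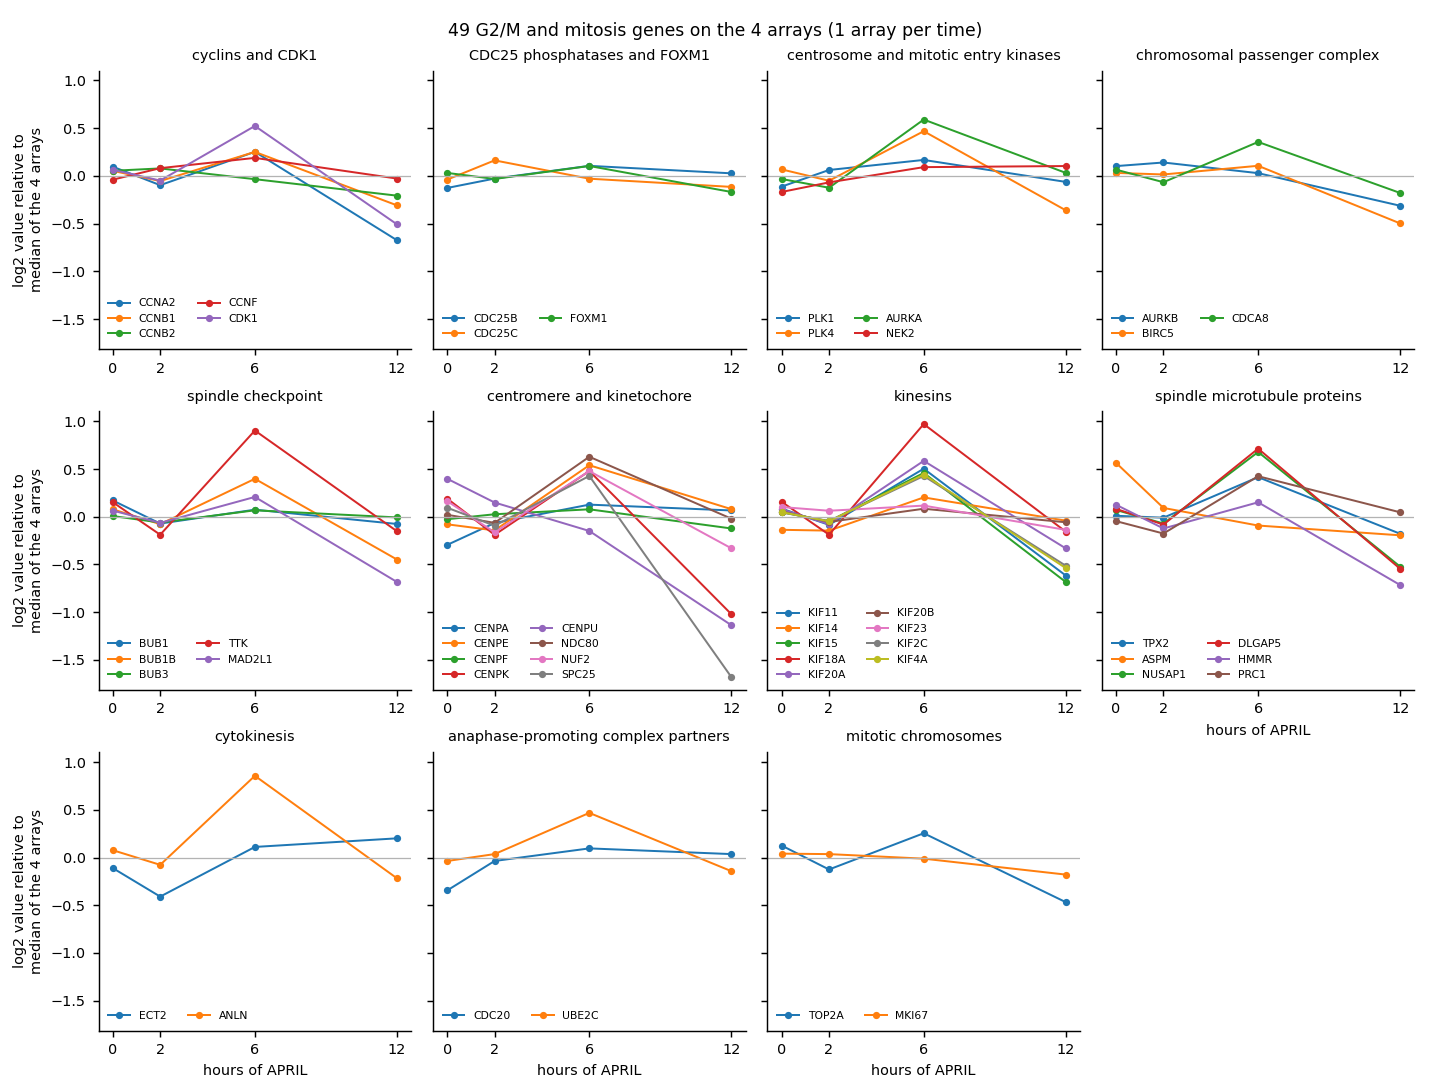
Log2 value of each of the 49 members relative to its median over the 4 arrays (vertical axis, 1 shared scale) at 0, 2, 6 and 12 h of APRIL (horizontal axis), in 1 panel per role; each point is 1 array and the median over the gene's probe sets. Most lines peak at 6 h, reaching 0.97 for KIF18A and 0.90 for TTK, and SPC25 reaches -1.68 at 12 h; on the spike-in scale all 12 h points would lie higher by a common step.

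Promoter sequence from RefSeq (GRCh38.p14) was found for 42 of the 49 members, with 53 promoters of 300 bases each, 250 before and 50 after the transcript start. The word of the homology region, TTTGAA or TTCGAA on either strand, was found in 36 of 53 member promoters (67.9%), against 16.4% of all 35116 promoters in the table and 13.6% of the 21490 that belong to genes read here. A CCAAT box, the word CCAAT on either strand, which binds the factor NF-Y, was found in 39 (73.6%) against 34.6% of all promoters. An E2F word (TTTGGCGC or TTTCGCGC or TTTCCCGC) was found in 6 (11.3%) against 2.74%. Of the 51 positions with a homology word in member promoters, 21 (41.2%) began within the 50 bases before the start, against 14.5% in all promoters. These are matches of letters, not shown sites. The stretches below run from 100 bases before to 20 after the start and are shown because they belong to the 6 members with the largest 12 h minus 6 h ratios among those with the homology word in this stretch. They are read 5′ to 3′ on the gene's strand, with homology words and CCAAT boxes in capitals, in either orientation (TTCAAA and ATTGG when reversed). They lie at chr2:168890411-168890530 (minus strand) for SPC25, chr14:55191566-55191685 (minus strand) for DLGAP5, chr15:41332781-41332900 (plus strand) for NUSAP1, chr3:44761694-44761813 (plus strand) for KIF15, chr11:28108137-28108256 (minus strand) for KIF18A and chr10:92593030-92593149 (plus strand) for KIF11.
SPC25: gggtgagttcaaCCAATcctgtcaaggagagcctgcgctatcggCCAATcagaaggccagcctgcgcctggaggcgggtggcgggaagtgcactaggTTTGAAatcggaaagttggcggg
DLGAP5: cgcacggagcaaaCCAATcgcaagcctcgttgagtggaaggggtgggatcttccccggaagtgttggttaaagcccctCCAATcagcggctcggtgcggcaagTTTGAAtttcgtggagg
NUSAP1: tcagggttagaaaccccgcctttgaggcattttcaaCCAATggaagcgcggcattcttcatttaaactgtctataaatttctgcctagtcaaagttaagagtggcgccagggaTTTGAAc
KIF15: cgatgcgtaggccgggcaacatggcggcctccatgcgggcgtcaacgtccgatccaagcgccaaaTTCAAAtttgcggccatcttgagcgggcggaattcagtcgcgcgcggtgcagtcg
KIF18A: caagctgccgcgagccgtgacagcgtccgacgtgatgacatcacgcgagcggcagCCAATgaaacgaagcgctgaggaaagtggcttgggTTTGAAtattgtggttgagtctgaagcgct
KIF11: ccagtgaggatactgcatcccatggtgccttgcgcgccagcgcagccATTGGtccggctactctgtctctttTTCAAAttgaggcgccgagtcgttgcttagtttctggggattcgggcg

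Each of the 6 holds the homology word in its stretch because that was the rule for showing it. It lies before the start in KIF15, KIF18A and KIF11, runs across it in SPC25 and lies after it in DLGAP5 and NUSAP1. Further homology words lie upstream of the stretch in SPC25 (247 bases before the start) and DLGAP5 (138 and 109 bases). In the SPC25 stretch CCAAT boxes begin 88 and 56 bases and the homology word 3 bases before the start. In KIF11 both are reversed, with the homology word 28 bases before it. In KIF15 there is no CCAAT box, and a reversed E2F word 43 bases before the start is followed directly by a reversed homology word at 35 bases. The same word stands in promoters of members that differed little between the 6 h and 12 h arrays. The kinase PLK1 (-0.23 for 12 h minus 6 h) and the centromeric histone CENPA (-0.06), picked for this contrast after their values were seen, have it 29 and 18 bases before the start. Their stretches lie at chr16:23678789-23678908 and chr2:26785956-26786075, both on the plus strand.
PLK1: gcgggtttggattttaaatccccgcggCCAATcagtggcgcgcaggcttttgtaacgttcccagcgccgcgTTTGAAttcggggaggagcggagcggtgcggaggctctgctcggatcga
CENPA: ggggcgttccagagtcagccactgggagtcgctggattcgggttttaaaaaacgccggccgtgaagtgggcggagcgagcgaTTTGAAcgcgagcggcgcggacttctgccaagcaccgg

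Over the 42 members with a promoter, the 33 with a homology word had a median 12 h minus 6 h ratio of -0.53 and the 9 without had -0.92. The medians for 6 h minus 0 h were 0.31 and 0.26. The 35 members with a CCAAT box had a 12 h minus 6 h median of -0.40 and the 7 without had -0.85. The 5 with an E2F word had -1.002 and the 37 without had -0.53. For 12 h minus 6 h, members with the homology word or the CCAAT box had the smaller median difference. CENPK and CENPU, which had some of the largest differences, hold no homology word in these windows. Only the exact words given above were searched, so members without a homology word are not shown to lack the element. The 7 members without a promoter are left out, and a relation between these words and the ratios was not tested.

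**Figure D3:**
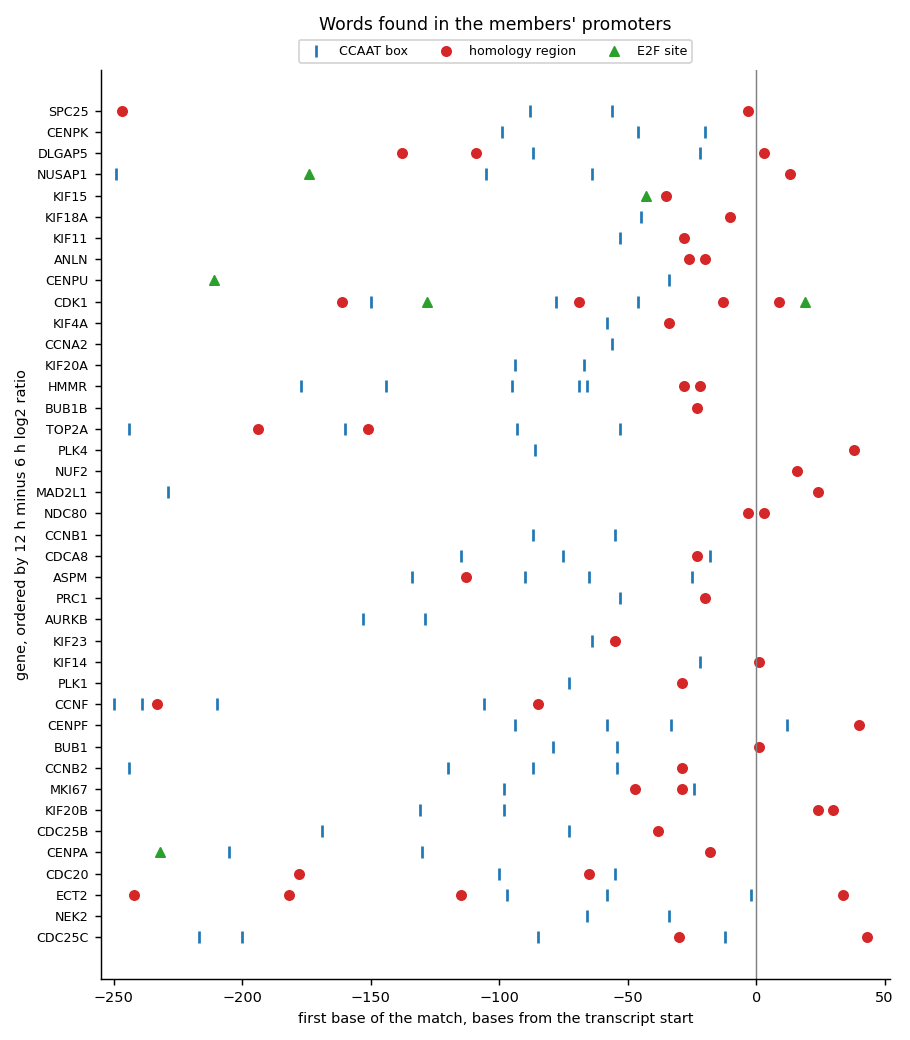
Position of each word (horizontal axis, first base in bases from the transcript start, on the gene's strand) in the promoters of the 40 members with any match, ordered from top by their 12 h minus 6 h log2 ratio; KIF2C and CENPE, with a promoter but no match, are not drawn. Homology words (red points) stand near the start in genes at the top, such as SPC25 (-3, with another at -247), and at the bottom, such as CENPA (-18).

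Of the cyclins and CDK1, which together set off mitosis, CDK1 and CCNA2 differed most. CDK1, the catalytic subunit, stood at 0.06, -0.05, 0.52 and -0.51 on the 0, 2, 6 and 12 h arrays, the order used from here on. Its 12 h minus 6 h ratio was -0.99 (SD 0.27 over 4 probe sets, all below 0), 1.99-fold lower. Cyclin A2 (CCNA2), the partner of S phase and G2, was at 0.10, -0.10, 0.25 and -0.67, with a ratio of -0.93 (SD 0.17 over 2 probe sets) against 6 h and -0.77 (SD 0.038) against 0 h. By gene value the 6 h array was highest and the 12 h array lowest for both. For 6 h minus 0 h, however, the probe sets of CDK1 ranged from -0.14 to 0.51. Without _x_at and _s_at probe sets its ratio there was 0.16. The B cyclins that bind CDK1 in mitosis lay below 1.5-fold, with CCNB1 at -0.56 and CCNB2 at -0.16 for 12 h minus 6 h. The probe sets of CCNB2 differed, from -0.70 to -0.15. CCNF, the substrate receptor of a ubiquitin ligase that acts in G2, was at -0.22.

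The activators of this step differed less between arrays. FOXM1, the transcription factor of G2 genes, stood at 0.03, -0.03, 0.10 and -0.17 at 0, 2, 6 and 12 h, with a 12 h minus 6 h ratio of -0.27. CDC25B, a phosphatase that activates CDK1, was at -0.13, -0.03, 0.11 and 0.03. Neither passed 1.5-fold in any comparison, and each rests on 1 probe set. For CDC25C, the related phosphatase, 3 probe sets ranged from -0.74 to 0.09 for 12 h minus 6 h around a median of 0.06, so its direction depends on the probe set.

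Among the kinases of centrosomes and mitotic entry, AURKA was high at 6 h and PLK4 low at 12 h. Aurora kinase A (AURKA), which matures the centrosomes, stood at -0.03, -0.12, 0.59 and 0.03. Its 6 h minus 0 h ratio was 0.69 (1.61-fold, SD 0.25 over 3 probe sets, all above 0). At 12 h AURKA was back near 0 h as deposited, at 0.06, and at 0.42 on the spike-in scale. Without _x_at and _s_at probe sets 1 remained for AURKA, with 0.29 for 6 h minus 0 h, short of 1.5-fold. PLK4, the kinase of centriole duplication, was at 0.07, -0.05, 0.47 and -0.36, with -0.81 for 12 h minus 6 h (SD 0.39 over 3 probe sets). The median of PLK4 rests on probe sets that differed, from -0.84 to -0.14. PLK1 and NEK2, which splits the centrosomes, were within 1.5-fold throughout, with 12 h minus 6 h ratios of -0.23 and 0.01.

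In the chromosomal passenger complex, which corrects wrong attachments of chromosomes, all 3 members were lower at 12 h than at 6 h. BIRC5 (survivin) stood at 0.03, 0.02, 0.11 and -0.50, with a ratio of -0.76 (SD 0.27 over 4 probe sets, all below 0) for 12 h minus 6 h. CDCA8 (borealin) was at 0.07, -0.07, 0.36 and -0.18, and its ratio of -0.53 lay short of 1.5-fold. BIRC5 passed 1.5-fold and differed little between 0, 2 and 6 h. For AURKB, the kinase of the complex, the ratio was -0.34, and its 2 probe sets lay on opposite sides of 0 for 6 h minus 0 h, at -0.49 and 0.34.

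The spindle checkpoint members differed widely in size, with TTK, BUB1B and MAD2L1 past 1.5-fold lower for 12 h minus 6 h and BUB1 and BUB3 short of it. TTK (MPS1), the kinase that starts checkpoint signalling, stood at 0.15, -0.19, 0.90 and -0.15. It was 1.68-fold higher at 6 h than at 0 h (0.75) and 2.08-fold lower at 12 h than at 6 h (-1.05), on 1 probe set. BUB1B (BUBR1), part of the inhibitor of the anaphase-promoting complex, was at 0.08, -0.08, 0.40 and -0.45, with -0.85 for 12 h minus 6 h. MAD2L1 (MAD2), which binds CDC20 in that inhibitor, was at 0.06, -0.06, 0.21 and -0.68. The ratio of MAD2L1 was -0.77 (SD 0.14 over 3 probe sets) against 6 h and -0.73 (SD 0.33) against 0 h, with only 0.04 for 6 h minus 0 h. TTK thus differed most at 6 h, and was 0.30 below its 0 h value at 12 h, while MAD2L1 differed at 12 h. BUB1 and BUB3, which act at kinetochores, had medians of -0.17 and -0.07 for 12 h minus 6 h. The 5 probe sets of BUB1 ranged from -0.83 to 0.36, so 1 of them was close to the value of BUB1B.

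The kinetochore and centromere members held the largest differences of all. SPC25, a subunit of the NDC80 complex that grips microtubules, stood at 0.09, -0.09, 0.43 and -1.68, and was 4.31-fold lower at 12 h than at 6 h (-2.11). CENPK, of the inner kinetochore, was at 0.19, -0.19, 0.48 and -1.02, 2.83-fold lower (-1.50). Each rests on 1 probe set. CENPU, also of the inner kinetochore, was at 0.40, 0.15, -0.15 and -1.14, lower on each later array, with -1.32 for 12 h minus 0 h (SD 0.27 over 3 probe sets, all below 0). These were the 3 members past 2-fold lower than 0 h at 12 h, with SPC25 at -1.77 and CENPK at -1.21.

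The other subunits of the NDC80 complex did not match SPC25 in size. NDC80 itself stood at 0.02, -0.06, 0.63 and -0.02, which is high at 6 h (0.61 over 0 h). As deposited it was back at its 0 h value at 12 h (-0.04), and on the spike-in scale it was 0.31 above it. NUF2 was at 0.16, -0.16, 0.48 and -0.33, with -0.81 for 12 h minus 6 h and -0.49 for 12 h minus 0 h. SPC25, NUF2 and NDC80 are parts of 1 complex and yet their 12 h minus 0 h values ran from -1.77 through -0.49 to -0.04. CENPE, the kinesin that carries chromosomes along the spindle, was at -0.08, -0.14, 0.54 and 0.08, 1.54-fold higher at 6 h than at 0 h (0.62). CENPA, which marks the centromere, and CENPF, a large coat protein of the kinetochore, were at -0.06 and -0.20 for 12 h minus 6 h.

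All 9 kinesins had gene values above 0 for 6 h minus 0 h and below 0 for 12 h minus 6 h, with medians of 0.39 and -0.94. Of the 19775 genes, 11782 and 10728 lay on those sides. In the second comparison 6 of 9 kinesins passed 1.5-fold lower, where 3.4% of all genes did. KIF18A, which limits the swaying of chromosomes on the spindle, had the highest 6 h value of all members. It stood at 0.16, -0.19, 0.97 and -0.16, 1.76-fold higher at 6 h than at 0 h (0.81) and 2.18-fold lower at 12 h than at 6 h (-1.13). KIF11 (Eg5), the motor that pushes spindle poles apart, was at 0.08, -0.08, 0.50 and -0.62, with -1.12 for 12 h minus 6 h. KIF15, which backs it up, was at 0.05, -0.05, 0.46 and -0.68, with -1.14. All 3 were highest at 6 h, and each rests on 1 probe set. KIF11 and KIF15 were lowest at 12 h, and KIF18A was lowest at 2 h, at -0.34 for 2 h minus 0 h.

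KIF4A, a chromosome-bound motor, followed the same order at 0.05, -0.05, 0.44 and -0.54, and its ratios were -0.98 against 6 h and -0.59 against 0 h, the latter at the edge of 1.5-fold. KIF2C (MCAK), which takes microtubules apart, was at 0.04, -0.04, 0.43 and -0.51, with -0.94 for 12 h minus 6 h (SD 0.10 over 2 probe sets). KIF20A, needed for cytokinesis, was at 0.08, -0.08, 0.59 and -0.33, with -0.92. KIF14, KIF20B and KIF23, which act at the midzone and midbody, lay between -0.25 and -0.14 for 12 h minus 6 h. Each of these 3 has several probe sets, and those of KIF20B ran from -0.77 to -0.02. For 6 h minus 0 h the probe sets of KIF14 (-0.10 and 0.78) and KIF23 (-0.39 and 0.42) lay on both sides of 0.

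**Figure D4:**
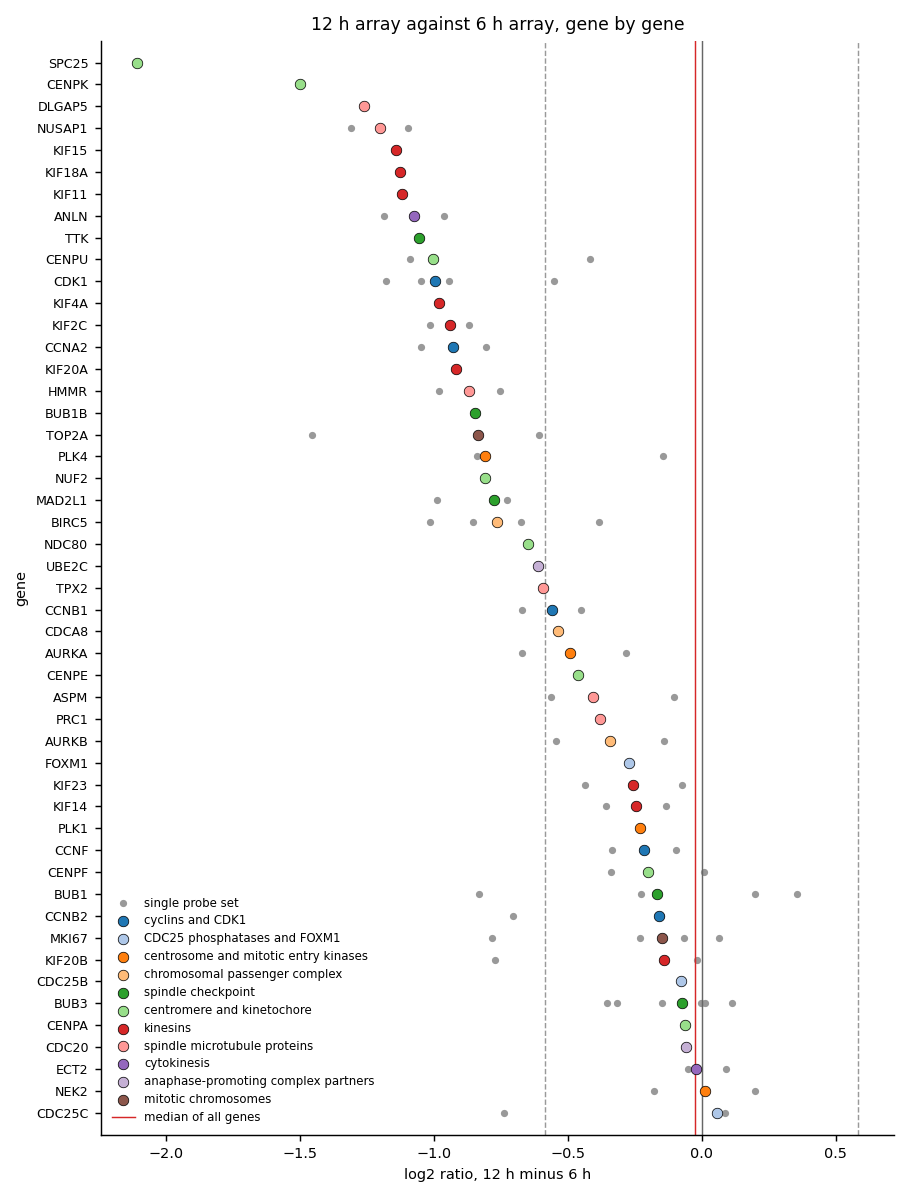
Log2 ratio of the 12 h over the 6 h array (horizontal axis) for the 49 members in order (vertical axis), as the gene's median (large points, coloured by role) and its single probe sets (small grey points); dashed lines mark 1.5-fold and the red line the median of all genes, -0.02. SPC25 at -2.11 and CENPK at -1.50 lie apart at the top, 25 members are left of the dashed line, and CDC25C at 0.06 is at the bottom; on the spike-in scale all values move right together and 9 members stay past the line, where 0.850% of all genes do.

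Of the proteins that organise spindle microtubules, DLGAP5 (HURP) and NUSAP1 differed most, and all 6 were below 0 for 12 h minus 6 h. DLGAP5, which stabilises kinetochore fibres, stood at 0.08, -0.08, 0.71 and -0.55, 1.55-fold higher at 6 h than at 0 h and 2.39-fold lower at 12 h than at 6 h (-1.26). NUSAP1, a microtubule bundler, was at 0.07, -0.07, 0.68 and -0.52. Its 2 probe sets were close, with 0.61 for 6 h minus 0 h (SD 0.035) and -1.20 for 12 h minus 6 h (SD 0.15). HMMR, a centrosomal protein, was at 0.13, -0.12, 0.15 and -0.72, with -0.84 (SD 0.12 over 2 probe sets) for 12 h minus 0 h and 0.03 for 6 h minus 0 h. HMMR thus lacked the 6 h difference of DLGAP5 and NUSAP1, and its 12 h value was lower than theirs. TPX2, the activator of AURKA, was at 0.01, -0.01, 0.41 and -0.18, with -0.59 for 12 h minus 6 h, just past 1.5-fold.

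ASPM, a spindle pole protein, was the member that passed 1.5-fold lower at 6 h. It stood at 0.56, 0.09, -0.09 and -0.19, with -0.66 for 6 h minus 0 h, but its 3 probe sets ranged from -0.85 to 0.35 (SD 0.64), and as a mean over them it was not past 1.5-fold. PRC1, which crosslinks midzone microtubules, had 0.47 for 6 h minus 0 h and -0.38 for 12 h minus 6 h.

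Of the 2 cytokinesis members, ANLN (anillin), which anchors the contractile ring, stood at 0.08, -0.08, 0.86 and -0.22, with -1.07 for 12 h minus 6 h (SD 0.16 over 2 probe sets). Both of its probe sets gave 0.78 for 6 h minus 0 h, 1.72-fold. ECT2, the exchange factor that starts ring assembly, was at -0.11, -0.41, 0.11 and 0.20, and passed 1.5-fold in no comparison. Its 3 probe sets ran from -0.07 to 0.42 for 12 h minus 0 h, and without _x_at and _s_at probe sets, which leaves 1, the ratio turned from 0.31 to -0.071.

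The partners of the anaphase-promoting complex, the ubiquitin ligase that ends mitosis, also parted at 12 h. UBE2C, its ubiquitin-conjugating enzyme, stood at -0.04, 0.04, 0.47 and -0.14, with -0.61 for 12 h minus 6 h. CDC20, its activator, was at -0.34, -0.04, 0.10 and 0.04, lowest at 0 h and level from 2 h on. CDC20 had the highest 12 h minus 0 h ratio of all members, 0.38, below 1.5-fold. On mitotic chromosomes, TOP2A, the topoisomerase that untangles sister chromatids, was at 0.13, -0.13, 0.25 and -0.47, with -0.83 (SD 0.44 over 3 probe sets, all below 0) for 12 h minus 6 h and -1.45 in its most variable probe set. MKI67, the proliferation marker Ki-67, was at -0.15, with 4 probe sets from -0.78 to 0.06.

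The values differed with how many probe sets read a gene. Read by 1 probe set were CDC25B, FOXM1, PLK1, CDCA8, BUB1B, TTK, CENPA, CENPE, CENPK, NDC80, NUF2 and SPC25. So were KIF11, KIF15, KIF18A, KIF20A, KIF4A, TPX2, DLGAP5, PRC1, CDC20 and UBE2C. The 22 members with 1 probe set were all above 0 for 6 h minus 0 h (median 0.41), where 11782 of the 19775 genes were. All 22 were below 0 for 12 h minus 6 h (median -0.73), where 10728 of the 19775 genes were. The 27 with several had medians of 0.13 and -0.40. For 12 h minus 6 h, 20 of these 27 had probe sets of 1 sign and 7 did not, and for 6 h minus 0 h it was 10 and 17. Over the 100 probe sets as such, 90 were below 0 for 12 h minus 6 h and 47 were past 1.5-fold lower. The SD between the probe sets of a gene had a median of 0.23 in that comparison. It covers measurement within these arrays only.

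Mitotic genes outside the members, from lists named for their function, showed the same order in part. Of all 19775 genes, 11782 were above 0 for 6 h minus 0 h and 10728 below 0 for 12 h minus 6 h. In the latter comparison 3.4% of all genes passed 1.5-fold lower and 3.51% higher. Of 37 other mitotic kinases, regulators and spindle genes read, 31 were above 0 for 6 h minus 0 h (median 0.25) and 34 below 0 for 12 h minus 6 h (median -0.54), with 16 past 1.5-fold lower and none higher in the second. MELK, a mitotic kinase, was at -1.17, SGO2, a protector of centromeric cohesion, at -1.14 and the spindle protein SPAG5 at -1.08. Of 28 other centromere and kinetochore genes, 27 were below 0 for 12 h minus 6 h (median -0.51) and 11 past 1.5-fold lower, while their 6 h minus 0 h median was 0.09. ZWINT, a kinetochore linker of the checkpoint, was at -1.86, DSN1 at -1.17, ITGB3BP (CENP-R) at -1.07 and OIP5, a loader of CENPA, at -1.02. The ZWINT and DSN1 ratios to 0 h were -1.64 and -1.18 at 12 h, of a size with SPC25 and CENPU.

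In condensin and cohesin, which fold and hold chromosomes, 6 of 17 genes passed 1.5-fold lower for 12 h minus 6 h (median -0.22), where 3.4% of all genes did. Among them were the condensin subunits NCAPG at -1.15 and NCAPH at -1.06. Subunits and regulators of the anaphase-promoting complex were near all genes, with a median of -0.16 over 16 and none past 1.5-fold. ANAPC15 at -0.56 and ANAPC10 at -0.50 were the largest. Of the 13 DREAM and MuvB genes 1 passed, MYBL2 (B-MYB), the G2 partner of MuvB, at -0.92, and LIN52, a core subunit, was at -0.51. Among the 8 of 10 CDK inhibitors and related brakes that were read, the 12 h minus 6 h median was -0.05, with SFN (14-3-3 sigma) at -0.90 and GADD45B at 0.38. None of the 8 was below 0 for 6 h minus 0 h, where 7857 of the 19775 genes were. For 12 h minus 0 h, 7 of the 8 were above 0, as were 10217 of the 19775 genes. There CCNG2 passed 1.5-fold higher (0.61, 4.46% of all genes) and SFN lower (-0.69, 3.7%).

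The replicative helicase, the MCM, GINS and CDC45 proteins of S phase, was lower than the members at 12 h and less high at 6 h. The 12 h array was the lowest for 12 of its 12 genes, against 28.9% of all genes. The 6 h array was the highest for 8, but by little, against 31.8% of all genes. Its 12 genes had a median of 0.01 for 6 h minus 0 h, against 0.29 for the members, and -1.07 for 12 h minus 0 h, against -0.30. For 12 h minus 6 h it was -1.03, against -0.59, with 9 of 12 past 1.5-fold lower, where 3.4% of all genes were. The largest were GINS1 at -1.75, MCM10 at -1.63, MCM6 at -1.58, MCM2 at -1.52, MCM4 at -1.26, CDC45 at -1.04 and MCM5 at -1.02. Within the members, CENPU, MAD2L1 and HMMR likewise had little or no 6 h excess and were low at 12 h. AURKA, CENPE, NDC80 and PRC1 had the 6 h excess and at 12 h lay within 0.16 of their 0 h value as deposited. On the spike-in scale AURKA, CENPE and NDC80 were at 0.42, 0.51 and 0.31 for 12 h minus 0 h, beside 0.36 for the median of all genes. With 1 array per time none of these differences between gene groups can be tested.

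The ratios of 2 h to 0 h and of 12 h to 6 h share no array. Across the 49 members they went together, with Spearman's rho 0.62 and Pearson's r 0.57, against 0.15 and 0.12 across all 19775 genes. SPC25, CENPK, KIF18A, TTK and NUF2 were low in both, and CDC20, CDC25C, CENPA and NEK2 were near or above 0 in both. Other members did not follow this order, such as ECT2 at -0.30 and -0.02 and BIRC5 at 0.03 and -0.76. The correlation is a description across genes chosen after the values were seen. The points share 4 arrays, 1 normalisation and the sensitivity of each gene's probe sets, and genes are not independent replicates.

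**Figure D5:**
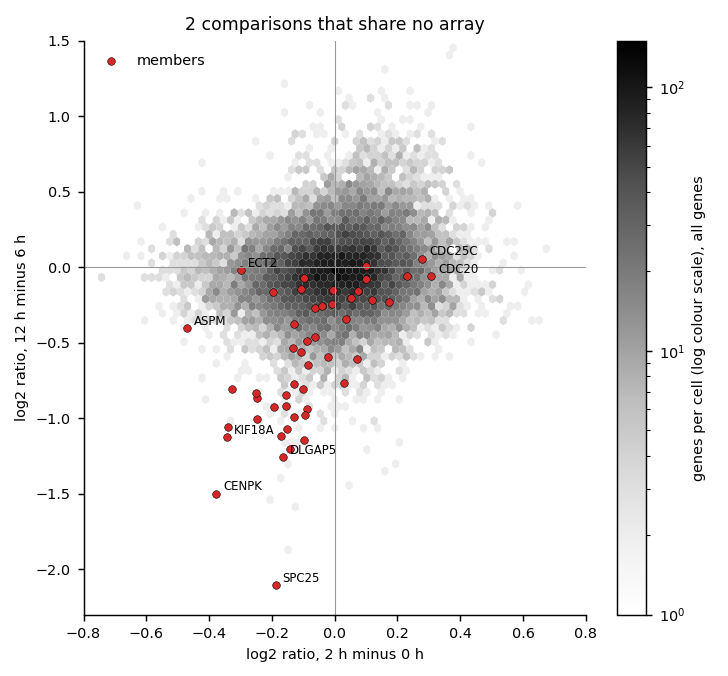
Log2 ratio of 2 h minus 0 h (horizontal axis) against that of 12 h minus 6 h (vertical axis) for the 49 members (red points, some named) over the density of all genes (grey cells, darker for more genes on a log scale); genes beyond the axes are not drawn. Members further left tend to lie lower (rho 0.62), from CDC20 at 0.31 and -0.06 to CENPK at -0.38 and -1.50; the spike-in scale shifts all points up together.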

How the data were processed

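RNA of 4 samples of HepG2 cells (0, 2, 6 and 12 h of APRIL) was measured on 1 array each. The authors deposited log2 values of 54675 probe sets. Per the submitters' processing notes these come from RMA (no version named). Every probe set had a median of 0 (tolerance 1e-06), so no level is left. The sources used here do not state the log base, the centring step or the direction: base 2 follows RMA, and higher was read as more transcript. Over genes the medians of the 0, 2, 6 and 12 h arrays were -0.013, -0.0038, 0.021 and -0.00010.

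Symbols came from the platform annotation, and 41091 probe sets with exactly 1 symbol gave 19775 genes (41043 of these probe sets matched RefSeq by identifier). Ratios were taken per probe set and their median given as the gene's, and its value on an array the median of its values there, so a ratio can differ slightly from the difference of the values. Genes at or past 1.5-fold were counted. Computations used Python 3.11.15, numpy 2.4.6 and pandas 2.3.3, and the ratio step was checked on simulated data. Members with values on every array were those past 1.5-fold in any of the 4 comparisons and, per role group, those with the largest ratio at 6 h, at 12 h and for 12 h minus 6 h. Of each outside list the 2 largest 12 h minus 6 h ratios and all past 2-fold are named. Members, lists, motifs and rules were chosen with earlier results of these data known. Promoters were searched by script for exact words. Alternatives were other scalings, other ways to join probe sets, the mean of 0 h and 2 h as reference, and other folds. Precision is limited by having 1 array per time.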

Additional observations from a re-analysis of the deposited data

How the results depend on the processing

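With each array centred on its median, member medians kept their direction and moved by less than 0.16, and the counts past 1.5-fold were as before except 24 in place of 25 lower for 12 h minus 6 h. Scaled on the hybridisation spike-in controls, the median for 12 h minus 0 h turned to 0.049 and that for 12 h minus 6 h moved to -0.16. Members past 1.5-fold then numbered 4 higher (0.703% of all genes) and 2 lower (2.49%) for 6 h minus 0 h. For 12 h minus 0 h they numbered 4 higher (19.3%) and 3 lower (1.16%). For 12 h minus 6 h they numbered 9 lower (0.850%) and 0 higher (23.0%). That scaling shifts all genes by 1 constant per comparison, -0.012, -0.080, 0.35 and 0.43 in the order used above. The 66 of 132 values of single members that moved beyond 0.16 are therefore all those with the 12 h array. None of them was past 1.5-fold with a change of sign. Taking for each gene its most variable probe set, the 12 h minus 6 h median was -0.77, and 1 member was past 1.5-fold higher for 12 h minus 0 h (9.61% of all genes). Without the _x_at and _s_at probe sets, whose probes are shared between transcripts, 39 members could be read and no median or count moved beyond the limits used here (0.16, the robust SD over genes of 2 h minus 0 h, or 1.5 times), while 10 values of single members did. With the mean over probe sets, or the mean of 0 h and 2 h as reference, the count past 1.5-fold lower at 6 h was 0 (1.65% and 1.69% of all genes), and with that reference 8 members passed it lower at 12 h (3.57%). A limit of 2-fold left 0 higher (0.101% of all genes) and 0 lower (0.283%) for 6 h minus 0 h, 3 lower (0.986%) for 12 h minus 0 h and 10 lower (0.885%) for 12 h minus 6 h. A limit of 0.322 in log2 units gave 5 lower (4.29%) for 2 h minus 0 h, 22 higher (8.57%) and 2 lower (6.38%) for 6 h minus 0 h, and 2 higher (13.4%) and 23 lower (10.8%) for 12 h minus 0 h. No single named member past 1.5-fold changed sign under any of these settings. There is 1 array per time, so none could be left out, and signal over background is not known from centred values.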
